A study of Homo sapiens with 4 samples.

Results

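The peaks of H3K27ac on the long arm of chromosome 17 (17q) were described, in SK-N-BE(2)C neuroblastoma (NB) cells with and without depletion of *SNHG1*. A member was any peak of either peak list that started at or beyond 26 Mb of chromosome 17 in GRCh38, and the rule itself uses position alone. The control list (sgCtrl) held 3547 such peaks among 63699, or 5.57% of the list, and the *SNHG1*-depletion list (sgSNHG1) held 2728 among 50119, or 5.44%. The 475 sgCtrl and 381 sgSNHG1 peaks that started below 22 Mb, on the short arm (17p), served as the reference. SK-N-BE(2)C is an established NB line with amplified *MYCN*. The control cells carried a non-targeting gRNA and were labelled wildtype, and the depleted cells carried gRNAs against *SNHG1* and were labelled *SNHG1* knockout. Both kinds of cells were transfected with Cas9 and selected as stable clones, so that each line descends from a single cell, and the clone used for ChIP-seq is not named in the sources used here. An effect of *SNHG1*-depletion and a difference between clones cannot be told apart. ChIP-seq was done on 2 samples of each kind, and the authors combined both before they called peaks, so that each group is represented by 1 list. The lists carry no spread between replicates, and the differences between them are descriptions without a test. A peak list does not measure the *SNHG1* transcript, so its depletion was not checked here. The 95% intervals below cover counting error only.

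H3K27ac is an acetyl mark that histone acetyltransferases place on nucleosomes beside active promoters and enhancers, and histone deacetylases remove it. Gain of 17q is the most common chromosomal change of high-risk NB, usually through an unbalanced translocation that leaves extra copies of the distal arm. Genes proposed to matter within the gain include *BIRC5* (survivin, an inhibitor of apoptosis that also acts in mitosis), *PPM1D* (a phosphatase that switches off the p53 response), *TBX2* (a T-box factor of the adrenergic NB state) and *IGF2BP1* (an RNA-binding protein that stabilises oncogenic transcripts). The copy number of 17q was not measured in these data.

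Stretches of the GRCh38 reference from inside 7 member peaks show the loci on which the results turn. They are the highest peak of both lists, in the array of U2 small nuclear RNA genes, the highest peak of each list that the other list lacks, and the start-site peaks of *PPM1D* and *TBX2*. Those of *SLFN11* and *RAD51C* were added after their values were seen, and *IGF2BP1* had no start-site peak. Each stretch was taken nearest to the summit outside annotated untranslated regions and is written 5′ to 3′ on the plus strand. Capitals mark matches to the 7 motifs searched on both strands.
U2 array peak, chr17:43246522-43246771: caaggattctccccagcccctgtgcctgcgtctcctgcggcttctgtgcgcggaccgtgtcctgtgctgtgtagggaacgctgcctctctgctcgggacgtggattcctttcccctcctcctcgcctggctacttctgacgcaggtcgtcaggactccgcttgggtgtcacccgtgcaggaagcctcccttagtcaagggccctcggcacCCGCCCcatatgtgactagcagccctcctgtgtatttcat
sgSNHG1-only U2 array peak, chr17:43251595-43251844: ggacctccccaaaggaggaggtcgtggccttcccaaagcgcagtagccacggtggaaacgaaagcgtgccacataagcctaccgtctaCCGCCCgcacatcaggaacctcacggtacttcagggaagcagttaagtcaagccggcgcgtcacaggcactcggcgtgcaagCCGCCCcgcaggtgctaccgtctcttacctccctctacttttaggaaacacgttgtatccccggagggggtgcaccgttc
sgCtrl-only LRRC37A4P peak, chr17:45514699-45514948: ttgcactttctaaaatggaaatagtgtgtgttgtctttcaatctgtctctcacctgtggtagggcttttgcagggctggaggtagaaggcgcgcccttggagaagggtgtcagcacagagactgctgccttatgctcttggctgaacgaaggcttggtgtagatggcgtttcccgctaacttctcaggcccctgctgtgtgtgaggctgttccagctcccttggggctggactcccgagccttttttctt
PPM1D, chr17:60600542-60600791: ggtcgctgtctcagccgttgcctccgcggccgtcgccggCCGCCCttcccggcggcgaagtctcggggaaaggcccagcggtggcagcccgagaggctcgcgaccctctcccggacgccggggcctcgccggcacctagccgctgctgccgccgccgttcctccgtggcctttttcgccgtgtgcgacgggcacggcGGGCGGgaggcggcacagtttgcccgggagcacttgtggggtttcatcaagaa
TBX2, chr17:61400177-61400426: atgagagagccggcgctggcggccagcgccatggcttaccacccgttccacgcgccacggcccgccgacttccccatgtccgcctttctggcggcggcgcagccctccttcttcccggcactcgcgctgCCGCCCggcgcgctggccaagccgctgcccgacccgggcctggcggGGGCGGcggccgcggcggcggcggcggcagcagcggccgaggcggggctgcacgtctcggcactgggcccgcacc
SLFN11, chr17:35373960-35374209: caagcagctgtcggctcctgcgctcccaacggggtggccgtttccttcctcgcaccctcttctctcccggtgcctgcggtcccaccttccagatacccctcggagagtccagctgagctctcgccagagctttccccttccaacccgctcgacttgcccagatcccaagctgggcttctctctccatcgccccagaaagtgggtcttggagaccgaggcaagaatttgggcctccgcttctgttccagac
RAD51C, chr17:58692686-58692799: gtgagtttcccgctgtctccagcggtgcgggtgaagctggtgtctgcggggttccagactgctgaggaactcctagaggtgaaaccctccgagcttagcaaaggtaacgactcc
All capitals in these stretches are GC boxes (GGGCGG), with 2 each in *PPM1D*, *TBX2* and the sgSNHG1-only U2 array peak and 1 in the highest U2 array peak. No match to the other 6 motifs lay in these windows. The *TBX2* stretch was the richest in G and C, at 79.2%, and the LRRC37A4P stretch the poorest, at 53.2%.

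The peak height used below is the fold enrichment at the summit, the ratio of fragments there to the local background that the peak caller estimated. The number of fragments at the summit and the background were also recovered from the fold enrichment and the −log10 p, for 99.3% of sgCtrl and 99.9% of sgSNHG1 peaks on 17q. The lowest background of a list, its floor, was 4.89 fragments in sgCtrl and 4.66 in sgSNHG1. No depth per sample was given in the lists, so depth is unknown. As a check of the cell type, 12 of 13 adrenergic NB markers had a start-site peak (one at most 3 kb from the start of a coding transcript) in each list, all but *GAP43*. Of all coding genes, 68.0% had one in sgCtrl and 66.5% in sgSNHG1, and 7.07% of those marked in sgCtrl had none in sgSNHG1. Of 8 mesenchymal markers, 3 had one in sgCtrl (*TWIST1*, *COL1A2* and *COL1A1*) and 1 in sgSNHG1 (*TWIST1*). Of 7 epithelial markers 6 had one in both lists, among them *KRT17* and *KRT19* on 17q, and of 8 immune and blood markers 2 had one in sgCtrl and 3 in sgSNHG1, so that start-site peaks were also found at genes typical of other cell types.

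Per coding gene, H3K27ac peaks were more numerous in each block of 17q than in the block proximal to it, while per Mb the block from 76 Mb held the most (166 in sgCtrl and 125 in sgSNHG1) and the block from 36 Mb the next most (78.6 and 60.8). In sgCtrl, 17q held 61.9 peaks per Mb and 4.22 per protein-coding gene, against 21.6 and 1.37 on 17p and 3.18 per gene over the whole list. In sgSNHG1 the same values were 47.6 and 3.25 on 17q, 17.3 and 1.10 on 17p, and 2.50 over the whole list. The first 10 Mb, from 26 to 36 Mb, resembled 17p with 181 sgCtrl peaks, or 1.47 per gene. Beyond 36 Mb the peaks per gene in successive 10 Mb blocks were 2.88, 3.39, 4.70 and 5.16, and in the last block, from 76 Mb to the end of the chromosome, they reached 9.21. That last block alone held 1206 sgCtrl and 909 sgSNHG1 peaks over 131 coding genes. The sgSNHG1 list followed the same order of blocks, with 1.28, 2.23, 2.80, 3.51, 3.85 and 6.94 peaks per gene. Of the bins of 1 Mb, the bin that starts at 81 Mb held the most peaks, 244 in sgCtrl and 174 in sgSNHG1. The bin at 33 Mb held the fewest in sgCtrl, 2, and with the bins at 70 and 71 Mb the fewest in sgSNHG1, 3.

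**Figure D1:**
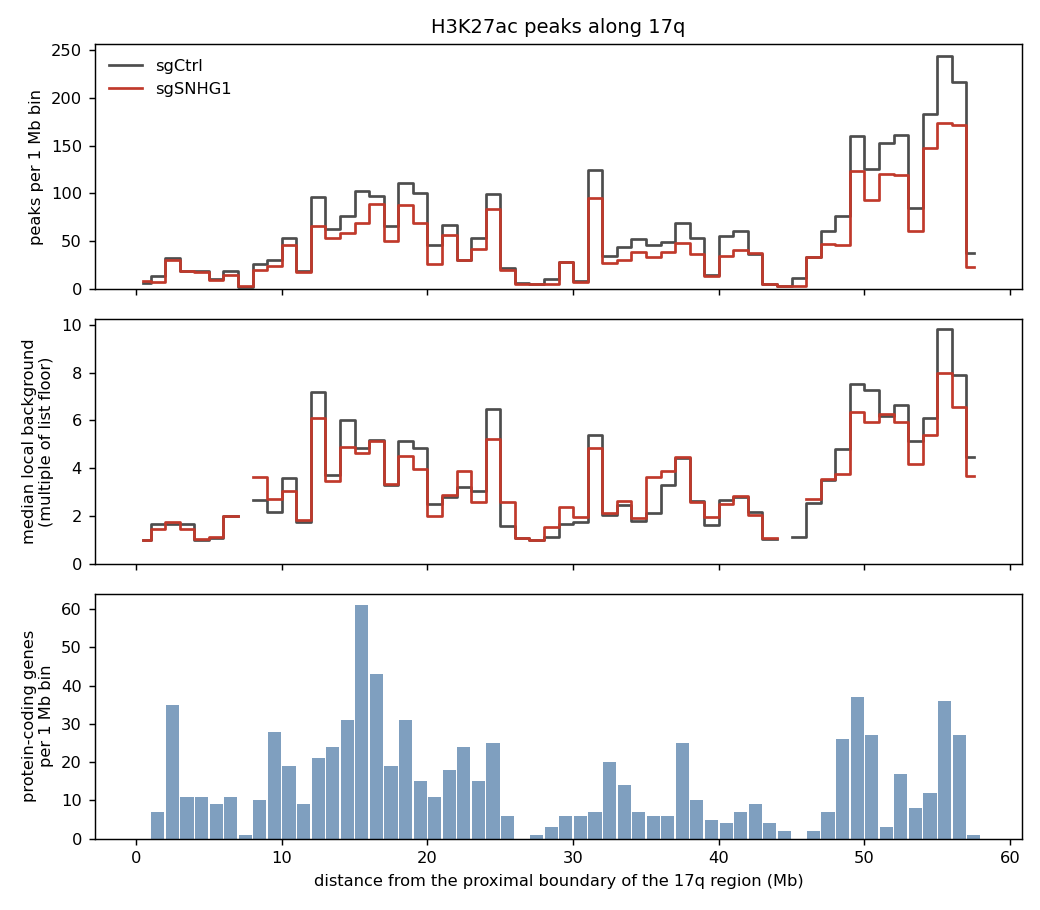
Peaks per 1 Mb bin (top), median local background of the peaks as a multiple of each list's floor (middle, bins with under 5 peaks left blank) and annotated protein-coding genes per bin (bottom) against the distance in Mb from the proximal boundary of the 17q region, with sgCtrl in grey and sgSNHG1 in red. The distal bins held up to 244 sgCtrl peaks, while the first 10 Mb stayed at a low density in both lists.

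The local background was also highest where peaks were dense. Its median on 17q was 4.79 times the floor in sgCtrl and 4.26 times in sgSNHG1, against 1.94 and 1.91 on 17p and 2.63 and 2.58 over the whole lists. In the block from 76 Mb it was 7.05 and 5.98 times the floor, and 0% of the peaks there sat at the floor in either list, against 12.6% and 12.9% on 17p. Acetylation of the surrounding sequence can raise this background, so peaks with no other peak of their list within 10 kb were taken apart. The median over 544 such sgCtrl peaks on 17q was 1.82 times the floor, against 1.40 on 17p and 1.27 over the whole list, and in sgSNHG1 it was 2.14 (540 peaks), against 1.44 on 17p and 1.44 overall. Between 26 and 36 Mb these isolated peaks lay at 1.18 times the floor in sgCtrl and 1.12 in sgSNHG1, and between 36 and 46 Mb at 2.35 and 2.51. In the next 10 Mb blocks they lay at 1.46 and 1.78, 1.71 and 1.91, and 2.15 and 2.39. From 76 Mb they lay at 2.89 and 2.90. The background of both lists thus rose from the first to the second block, fell in the third and rose again towards the end of the arm. With no input library among the files, extra copies of the arm, its base composition and weak acetylation below the calling threshold cannot be told apart as the source of this background.

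The fold enrichment divides by that background, and on 17q it was low. Its median was 3.13 in sgCtrl and 3.23 in sgSNHG1, against 3.94 and 4.14 on 17p and 3.75 and 3.89 over the whole lists. The median number of fragments at the summit was the other way around, 78 and 68 on 17q against 45 and 45 on 17p and 55 and 52 overall. In the block from 76 Mb the fold enrichment was lowest, 2.73 and 2.79, and the fragments were highest, 100 and 80.

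Several loci were covered densely. Of the windows of 100 kb, the one with the most covered bases in sgCtrl ran from 81100001 to 81200000 over *BAIAP2*, *AATK* and *CEP131*, with 26.1% of its bases in 38 peaks, and in sgSNHG1 15.1% in 25 peaks. *BAIAP2* encodes IRSp53, an actin regulator of neurites, and *AATK* a neuronal kinase linked to apoptosis. The window from 77400001 to 77500000 lies within *SEPTIN9*, which encodes a cytoskeletal GTPase, and had 23.1% and 18.3% of its bases covered. The other 3 of the 5 densest windows lay from 81900001 to 82300000 and hold *FASN* (fatty acid synthase), *CSNK1D* (casein kinase 1 delta), *MAFG* and *PYCR1*, among other genes. These 5 windows were the same in both lists. By contrast, 18.8% of 573 windows on 17q held no sgCtrl peak and 22.2% no sgSNHG1 peak, against 42.7% and 49.5% on 17p. Single genes with many peaks were *RPTOR*, the mTORC1 scaffold raptor, with 93 sgCtrl and 84 sgSNHG1 peaks in and within 10 kb of the gene, *MSI2*, an RNA-binding protein of progenitor cells, with 73 and 56, *SEPTIN9* with 71 and 56, and the tubulin folding cofactor *TBCD* with 48 and 37. These 4 genes were picked by their peak numbers after the data were seen.

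On 17q, 36.3% of sgCtrl peaks (95% Wilson interval 34.7% to 37.9%) were promoter peaks, with the peak at most 3 kb from the start of a coding transcript. In sgSNHG1 this share was 40.8% (38.9% to 42.6%). On 17p the shares were 57.1% and 65.4%, and over the whole lists 32.8% and 38.6%. The remaining peaks were sorted by the position of the summit. Introns held 29.5% and 25.95% of the 17q peaks, exons 11.0% and 9.79%, lncRNA genes 7.53% and 7.70%, and sequence between genes 15.8% and 15.8%.

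The sgSNHG1 list held fewer 17q peaks, at a ratio of 0.769 to sgCtrl (95% interval 0.732 to 0.808), against 0.802 on 17p (0.701 to 0.918) and 0.787 over the whole lists (0.778 to 0.796), so that the arm differed from neither beyond counting error. Promoter peaks fell less in number than others, with ratios of 0.865 and 0.715 on 17q, and 0.927 and 0.718 over the whole lists. The number of bases covered on 17q went from 1870745 in sgCtrl to 1377448 in sgSNHG1.

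Of the sgCtrl peaks on 17q, 62.1% (60.5% to 63.7%) were overlapped by an sgSNHG1 peak and 1344 were not, which is 37.9% of them. Over all peaks of the sgCtrl list 38.5% were not. In the other direction, 83.4% of sgSNHG1 peaks (81.9% to 84.7%) were overlapped by an sgCtrl peak, and the 454 without one were 16.6%, against 20.8% over all peaks of that list and 22.05% on 17p. The shared share of sgSNHG1 peaks was 88.3% (86.1% to 90.3%) in the dense block from 76 Mb and 79.0% (72.0% to 84.6%) between 26 and 36 Mb. Peaks of 1 list were low and short. The 1344 unshared sgCtrl peaks had a median fold enrichment of 2.79 and a median length of 294 bp, against 3.41 and 526 bp for the shared ones. Among the unshared sgSNHG1 peaks 42.3% lay within 1 kb of an sgCtrl peak.

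**Figure D2:**
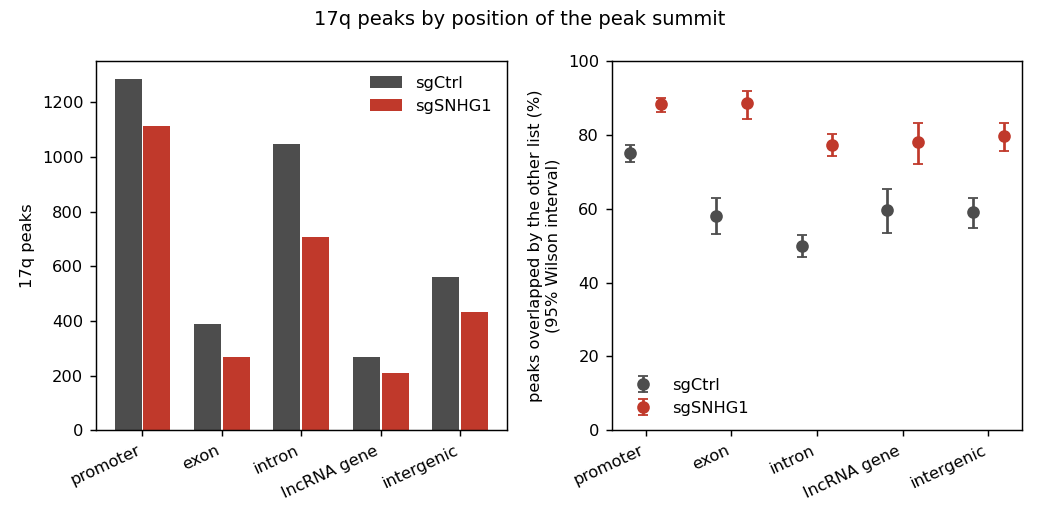
Number of 17q peaks (left) and percentage of them overlapped by a peak of the other list (right), by position, for sgCtrl (grey) and sgSNHG1 (red). Whiskers on the right are 95% Wilson intervals. Promoter peaks were set by the distance of the peak from a start site, and the other classes by the summit. Promoter peaks of sgCtrl were shared most often, at 75.1%, and intron peaks least often, at 49.9%.

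Promoter peaks of sgCtrl were shared more often than peaks at other positions. Of 1286 sgCtrl promoter peaks on 17q, 75.1% (72.7% to 77.4%) were overlapped by an sgSNHG1 peak, against 49.9% (46.9% to 52.9%) of 1046 intron peaks and 59.0% (54.9% to 63.0%) of 559 peaks between genes. Over the whole list 79.3% of promoter peaks and 52.8% of others were overlapped. In the block from 76 Mb the sgCtrl promoter share was lower, 69.4% (64.8% to 73.7%), and the share of other peaks higher, 59.5% (56.0% to 62.8%), and that block also had the highest background.

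The heights of the 2203 shared 17q peaks were close in both lists. Their median log2 ratio of sgSNHG1 to sgCtrl fold enrichment, relative to the median of all 39156 shared peaks, was 0.016 (0.0051 to 0.026), and on 17p 0.072 (0.035 to 0.093, 297 peaks). At least 1.5-fold higher in sgSNHG1 on this relative scale were 42 peaks, or 1.91%, against 2.17% of all shared peaks, and at least 1.5-fold lower were 18, or 0.817%, against 2.11%. Of the 42, 11 lay under a broad sgSNHG1 peak that covered more than 1 sgCtrl peak. Among the 2041 shared 17q peaks that overlapped 1 peak each, 31 were higher (1.52%, against 1.61% over all chromosomes) and 17 lower (0.833%, against 2.11%). The fragments at the summit gave another picture. Relative to all shared peaks and to the floor of each list, they were lower in sgSNHG1 on 17q, with a median log2 ratio of -0.12 (-0.14 to -0.097), while on 17p they were higher, at 0.15 (0.10 to 0.19). The fall was largest in the block from 76 Mb, at -0.25 (-0.29 to -0.22), where 75.6% of the shared peaks were lower, and the block from 26 Mb rose by 0.19 (0.13 to 0.27). The local background of the same peaks moved along, by -0.16 on 17q and -0.31 in the block from 76 Mb, which is how the ratio of both stayed level. Where peaks overlapped 1 peak each, the fragments gave -0.12 on 17q and -0.24 (-0.29 to -0.21) in the block from 76 Mb. Shared peaks with a GC content in the middle of the range were lower on this scale over all chromosomes, at -0.14 around a median GC of 67.0%, and the median GC was 66.3% in the block from 76 Mb. Among peaks of like GC content and position (promoter or other), the median was -0.11 on 17q and -0.18 (-0.21 to -0.16) in the block from 76 Mb. The higher values of 17p and of the block from 26 Mb shrank to 0.051 (0.013 to 0.10) and 0.11 (0.012 to 0.18). This scale was chosen after the data were seen, and whether the change lies in acetylation, in the efficiency of the ChIP or in the copy number of the clones was not tested.

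**Figure D3:**
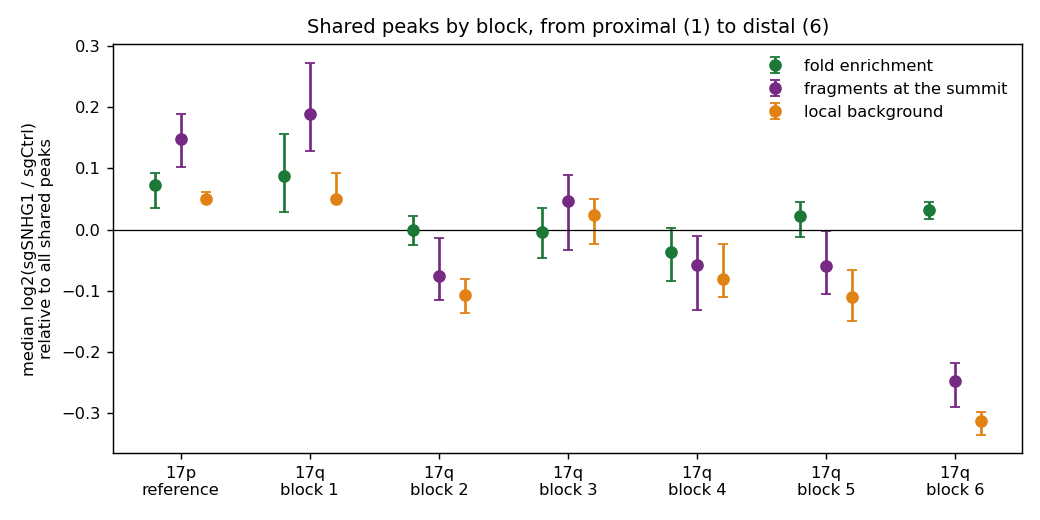
Median log2 ratio of sgSNHG1 to sgCtrl over shared peaks, relative to all shared peaks, for the fold enrichment (green), the fragments at the summit (purple) and the local background (orange), in 17p and in 6 successive blocks of 17q from proximal to distal, with 95% order-statistic intervals of the median. Fragments and background fell together to -0.25 and -0.31 in the most distal block, while the fold enrichment stayed near 0.

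The highest peak of both whole lists lay on 17q. In sgCtrl it spanned bases 43246262 to 43246870, with 415 fragments and a fold enrichment of 40.8, and in sgSNHG1 bases 43246264 to 43246836, with 567 fragments and 43.3. It lies within the array of 13 annotated U2 small nuclear RNA genes, from 43233787 to 43300231, in an intron of *CCDC200*. U2 is the RNA that pairs with the branch point in splicing, and its genes stand in near-identical tandem repeats. Stretches of 30 bases from this peak had a median of 10 copies in the reference, so that its reads can come from any repeat. Over the array sgCtrl had 1 peak and sgSNHG1 had 4. Of the 3 further sgSNHG1 peaks, the highest spanned bases 43251531 to 43251916 and reached into the 3′ end of a U2 gene, which lies on the minus strand. Its fold enrichment was 17.5, its stretches had a median of 12.5 copies, and it was also the highest sgSNHG1 peak on 17q that sgCtrl lacked. The other 2 were lower, with 7.60 and 6.89. The fifth highest sgSNHG1 peak, at the start site of *CCDC200* beside the array, had 18.6, against 16.1 in sgCtrl, at a median of 10.5 copies. The next 3 peaks by height after the U2 array peak in both lists lay between 26594732 and 26620254, beside the centromere and far from any coding gene, with fold enrichments of 20.3 to 25.5 in sgCtrl and 23.02 to 27.04 in sgSNHG1. Their stretches had up to 1198 copies. The sources used here state no filter on reads with several matches for ChIP-seq. In all, 15.1% of sgCtrl and 13.5% of sgSNHG1 peaks on 17q had a median of more than 1 copy, and 9 of the 20 highest of each list were among them.

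Among peaks of single-copy sequence, the highest were mostly promoters of widely used genes and differed little between the lists. *PSMD3*, a subunit of the proteasome lid, led the single-copy peaks of both lists, with a fold enrichment of 17.5 in sgCtrl and 16.99 in sgSNHG1. *KAT7*, an acetyltransferase of histone H3 and H4, had 16.9 and 16.0, *GRB2*, an adaptor of receptor tyrosine kinases, 16.0 and 16.3, and *PPM1D* 15.6 and 14.8. The helicase gene *DHX40* had 16.1 and 15.3. Among the highest 5 of sgSNHG1 were also *WDR45B*, an autophagy gene in the last megabase, with 16.0 against 14.2 in sgCtrl, and a peak between genes from 45584403 to 45585619, with 16.0, whose sgCtrl counterpart of 16.2 was counted as repeated sequence.

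*SLFN11* had promoter peaks in sgCtrl only. It encodes a Schlafen protein that blocks stalled replication forks and sensitises cells to DNA-damaging drugs. sgCtrl had 3 peaks in and within 10 kb of the gene, with fold enrichments of 7.10 at 35373948 to 35374524, 6.56 at 35373140 to 35373570 and 4.24 beyond its 3′ end, and sgSNHG1 had 0. The nearest sgSNHG1 peak lay 66057 bases or more from each of them. The first of the 3, with 44 fragments against a background of 5.33, was the highest single-copy sgCtrl peak on 17q with no sgSNHG1 peak within 1 kb. The other single-copy peaks of that kind lay 6512 bases from *B4GALNT2* (6.96) and in introns of *BCAS3* (5.599) and *CPD* (5.43). Of repeated sequence, a peak in *LRRC37A4P*, from 45514699 to 45514972, had 7.89 at a median of 3 copies, one in an intron of *TBC1D3F* 7.64 at 12.5 copies, and one between genes at 60025083 to 60025339 6.61 at 2 copies. In sgSNHG1, the highest single-copy peaks without an sgCtrl peak were in a lncRNA gene from 47067208 to 47067484 (6.90), in an intron of *TEX14* (6.83) and at the promoter of *C17orf75* (5.83). The percentile of a peak is the share of its list with the same or a lower fold enrichment, and the first *SLFN11* peak stood at percentile 89.0, the LRRC37A4P peak at 91.4 and the lncRNA gene peak at 86.2.

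Of the 5 shared peaks with the largest rise in sgSNHG1, 4 were promoters of single-copy sequence, but only *NSRP1* and *RAD51C* were pairs of single peaks. *RAD51C*, a homologous recombination gene, went from a fold enrichment of 3.80 to 7.03 and from 40 to 80 fragments, a ratio over the floors of 2.10 (exact 95% interval 1.42 to 3.15). That peak also lay within 3 kb of start sites of *TEX14* and *IGBP1C*. *NSRP1*, a splicing regulator whose peak also covers the *MIR423* hairpin, went from 3.73 to 7.27 and from 21 to 47 fragments, a ratio of 2.35 (1.38 to 4.14). At *MRPL58*, a rescue factor of mitochondrial ribosomes, a peak of 2.36 in sgCtrl was set against a broad sgSNHG1 peak of 4.74, which also covered an sgCtrl peak of 4.16, and the highest fragment numbers were 174 and 191. At *CYB561*, the cytochrome that feeds electrons to dopamine beta-hydroxylase in catecholamine vesicles, the broad sgSNHG1 peak of 4.52 covered sgCtrl peaks of 2.38 and 4.32, and the highest fragment numbers were 266 and 230. These 2 loci thus differed little in height. The largest rise was in an intron of *EFCAB5*, from 4.07 to 8.48, at a median of 39 copies. Of the 5 largest falls, 4 were of repeated sequence, in *LRRC37A3*, *TAOK1*, *SPAG5-AS1* and *CEP112*, and the fifth was near a start site of *SSH2*, a cofilin phosphatase, which went from 7.21 to 4.06 and from 47 to 22 fragments. The next single-copy falls were at 2 peaks between genes, from 7.30 to 4.24 at 70483689 and from 5.01 to 3.02 at 36703779, then at *AMZ2*, from 5.75 to 3.58, and in *MEOX1*, from 6.81 to 4.27. These peaks were chosen for their change, so the intervals describe counting error and test nothing.

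The genes proposed as drivers of 17q gain were marked in both lists. Of 20, 18 had a peak within 3 kb of a coding start site in sgCtrl and the same number in sgSNHG1, 90.0%, against 75.8% and 73.1% of the 840 coding genes of 17q. The 2 without were *IGF2BP1* and *TK1* (thymidine kinase of the S phase). *IGF2BP1* had 2 low sgCtrl peaks 15591 and 37750 bases from its nearest coding start site, with fold enrichments of 3.63 and 3.93, and no sgSNHG1 peak in or within 10 kb of the gene.

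The change of each gene was taken as that of the percentile of its highest peak in the gene and 10 kb around it. The percentile fell for 12 of the 19 genes with a peak in both lists and rose for 7, with a median of -1.47 (quartiles -2.38 and 0.94). Of all coding genes with a peak in both lists 59.2% fell, with a median of -0.69, so the list stayed near the background. With lists of equal size the median of the gain genes turned to 0.75. *PPM1D* (15.6 in sgCtrl and 14.8 in sgSNHG1), *RPS6KB1*, the S6 kinase downstream of mTORC1 (12.0 and 11.1), and *TRIM37*, a ubiquitin ligase of the centrosome (10.7 and 11.5), had high peaks in both lists. The highest peak of *JMJD6*, a 2-oxoglutarate oxygenase (15.3 and 15.5), lay at the start site of its neighbour *SRSF2*, and its own start-site peak had 9.66 and 11.1. The helicase gene *BRIP1* had 8.68 and 7.48. *NME1*, a nucleoside diphosphate kinase known as a metastasis suppressor, had 4.71 and 6.41 at its own start site, and its neighbour *NME2* 9.30 and 8.79.

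*BIRC5* had 7.21 and 7.20 at its start site, with 202 and 165 fragments over backgrounds of 27.1 and 22.1, and its number of peaks went from 5 to 2. *ALYREF*, an mRNA export factor, had 8.35 and 9.11, *MSI2* 7.93 and 7.59, *KIF18B*, a mitotic kinesin, 7.22 and 7.18, *CLTC*, the clathrin heavy chain, 6.79 and 6.598 at its own start site (the 7.84 of its window in sgSNHG1 lay at that of *PTRH2* and *VMP1*), and *TOP2A*, topoisomerase II alpha, 4.93 and 4.83. Lower were *SPHK1*, a kinase of sphingosine (3.54 and 3.76), *NGFR*, the low-affinity neurotrophin receptor (3.19 and 3.38), and *TK1* (3.00 and 3.06). *RAD51C* had the largest rise of the list, by 35.5 percentile points, and *PHB1*, a mitochondrial prohibitin, the largest fall, at -26.98. The *PHB1* change came from a peak 4490 bases from its start site with a median of 9 copies (6.93 and 4.33), while its promoter peak had 3.67 and 4.16.

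**Figure D4:**
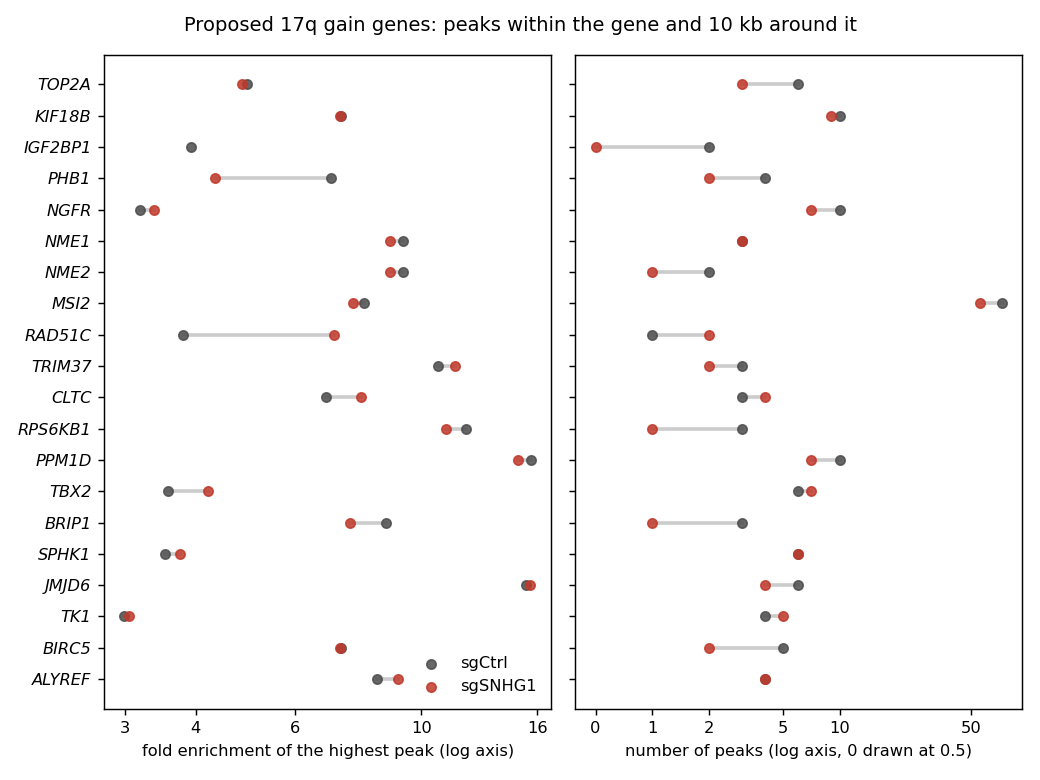
Fold enrichment of the highest peak (left) and number of peaks (right) within each proposed 17q gain gene and 10 kb around it, both on log axes, for sgCtrl (grey) and sgSNHG1 (red), with genes in the order of the chromosome. For *IGF2BP1* there was no sgSNHG1 peak, *RAD51C* rose from 3.80 to 7.03, and most other genes differed little in height.

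*TBX2* combined a low fold enrichment with many fragments. Its 6 sgCtrl and 7 sgSNHG1 peaks within 10 kb were all shared. The highest peak beside its start site lay 80 bases from it in sgCtrl and 77 in sgSNHG1. This peak had 295 fragments over a background of 81.7 in sgCtrl and 307 over 72.3 in sgSNHG1. The fold enrichments were 3.58 and 4.20. The highest exon peak, from 61405193 to 61406051, went from 226 to 139 fragments and from 3.54 to 2.66. The peak downstream of the gene, in a lncRNA gene, had 2.66 and 2.85. No *TBX2* peak thus differed by as much as 1.5-fold in height.

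The HOXB genes, homeobox genes that pattern the hindbrain and trunk, lie in 1 cluster and were thinly marked. Within 10 kb of the cluster sgCtrl had 7 peaks, with fold enrichments of at most 5.11, and sgSNHG1 had 2, both shared. Start-site peaks were found at 5 of 10 genes in sgCtrl and 2 in sgSNHG1, against 75.8% and 73.1% of the coding genes of 17q. The peak at *HOXB4* (5.11 and 4.29) also lies within *HOXB3*, and that in an intron of *HOXB2* (3.66 and 4.09) was the other shared one. In sgCtrl only were peaks in an intron of *HOXB3* (4.35), at *HOXB13* (4.05), at *HOXB7* (3.69, counted for *HOXB8* as well) and in a lncRNA gene 16185 bases from the nearest *HOXB9* start (3.77). *HOXB6* had no start-site peak, and its window held only the sgCtrl peak of 3.69. *HOXB1*, *HOXB5* and *HOXB9* had no peak in their windows in either list. All 7 were low, with 32 fragments or fewer. Of the sgCtrl peaks here 5 of 7 were unshared, against 37.9% over 17q.

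Genes of chromatin and histone acetylation had a start-site peak in both lists at 21 of 21, against 75.8% of the coding genes of 17q in sgCtrl and 73.1% in sgSNHG1. The highest were *KAT7* and *KANSL1*, the scaffold of the NSL acetyltransferase complex, with 16.3 in sgCtrl and 17.4 in sgSNHG1 at a start site of repeated sequence. *KAT2A*, the acetyltransferase GCN5, went from 3.20 to 3.71 and *SUPT4H1*, a subunit of the elongation factor DSIF, from 5.22 to 6.67. *MED24* of the Mediator complex went from 4.76 to 4.28 and *SMARCD2* of the SWI/SNF complex from 7.05 to 5.95. The median change was -0.24 percentile points, with 10 rises and 11 falls, while over all coding genes 59.2% fell, with a median of -0.69.

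Genes of translation and splicing had a start-site peak at 24 of 26 in both lists, against 75.8% and 73.1% of the coding genes of 17q. Their median change was -0.06, against -0.69 over all coding genes. The peak at *EFTUD2*, a GTPase of the U5 particle, had the largest rise of these, from 3.11 to 4.94 and from 52 to 100 fragments, at a start site it shares with *CCDC103*. By the highest peak of the window, *MRPS23* had the largest fall, from 5.50 to 4.24, and *PSMC5* followed, from 3.25 to 3.03, while their own start-site peaks had 3.83 and 3.92, and 2.67 and 2.74. *SRSF2*, a splicing factor, had 15.3 and 15.5. Genes of mitosis and DNA repair had one at 20 of 22 in each list, with a median of -1.47, 7 rises and 14 falls, beside start-site shares of 75.8% and 73.1% over 17q and 59.2% of all coding genes that fell. *KPNA2*, an importin, led with 12.4 and 11.7, and *SKA2* of the kinetochore had 8.23 and 6.63 at its own start site and 10.7 and 11.5 at that of its neighbour *TRIM37*. *NUP85* of the nuclear pore went from 4.57 to 5.88 and *DBF4B* from 4.28 to 3.89. In the window of *SPAG5* the highest peak had 9.02 in sgCtrl and 6.24 in sgSNHG1, at different positions. The former, of repeated sequence (median of 31.5 copies), went from 9.02 to 4.95. The latter, at the start site of *PIGS*, went from 6.98 to 6.24.

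Neuronal and glial genes had fewer start-site peaks, 18 of 30 in sgCtrl and 19 in sgSNHG1, of which 16 were in both. *LHX1*, a LIM homeobox gene, had the highest peak of the list in its window (15.1 and 13.3), but that peak lay at the start site of its neighbour *AATF*. At its own start site *LHX1* had a peak in sgSNHG1 only (4.00). *ASIC2*, a proton-gated channel, had 10.7 and 8.48 in its window and 4.36 and 5.20 at its own start site. *PPP1R1B*, which encodes DARPP-32, went from 3.52 to 4.82 in its window. *GFAP*, an intermediate filament of astrocytes, had 3.64 and 3.51 at its own start site, and its rise in the window came from the *EFTUD2* peak of 4.94. The highest peak in the window of *NSF*, the ATPase of vesicle fusion, had 4.72 with 35 fragments in sgCtrl and 3.47 with 81 in sgSNHG1. For *CRHR1* the values were 3.35 with 33 fragments and 2.76 with 51. The *CRHR1* peak of 3.35 lay at its start site, where sgSNHG1 had no peak. In both windows the fragments were thus higher where the fold enrichment was lower, and the 2 values need not belong to the same peak. The median change was -0.56, with 12 rises and 13 falls, beside 59.2% of all coding genes that fell and their median of -0.69.

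Lists of genes little used in neural cells had few start-site peaks, beside 75.8% of the coding genes of 17q in sgCtrl and 73.1% in sgSNHG1. Of 30 keratin and keratin-associated genes 10 had one in sgCtrl and 8 in sgSNHG1, with fold enrichments of 6.79 or less. Between 40687991 and 41634842, around these genes, sgCtrl had 50 peaks, of which 24 were unshared, and sgSNHG1 29, of which 3 were, against 37.9% and 16.6% unshared over 17q. Of the 14 genes with peaks in both lists 10 fell, with a median of -8.65, against 59.2% and -0.69 over all coding genes. Named by rule, *KRTAP9-1* and *KRTAP4-1* shared a peak that went from 6.79 to 5.13, *KRT38* and *KRTAP17-1* went from 4.08 to 5.71 and from 4.41 to 5.53, and *KRT35* and *KRT32* shared one that went from 3.79 to 3.05. Paralogues here are alike in sequence, which makes the placement of reads among them uncertain. Of 30 chemokine, CD300 and growth hormone genes and other blood cell genes 6 had a start-site peak in sgCtrl and 4 in sgSNHG1. By the highest peak of the window, *ITGA2B* had 5.48 and 6.86, at the start site of *FAM171A2*, and at its own start site 4.12 and 3.51. On the same window scale, *ITGB3* had 5.46 and 5.26, *PECAM1* 3.96 and 4.88, *CCR7* 2.69 and 3.08, *CD300E* 4.62 and 3.602 and *CD79B* 3.04 and 2.51.

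Over all 840 coding genes of 17q, 597 had a start-site peak in both lists, 40 in sgCtrl only and 17 in sgSNHG1 only. The 40 were 6.28% of the 637 genes marked in sgCtrl, against 7.07% of all coding genes marked there, and the 17 were 2.77% of 614, against 4.95%. *SLFN11* had the highest of the 40. They also held *PNMT*, which makes adrenaline from noradrenaline (2.08), *COL1A1*, a collagen of mesenchymal cells (2.29), 3 HOXB genes, and keratin genes. Of the 17, the highest were *UTP6* (5.13), a factor of ribosome processing, and *CRLF3* (4.81), and 7 of them lay between 26 and 36 Mb. That block held 1 of the 40, at *SLFN11*, while between 46 and 56 Mb 10 of 80 genes marked in sgCtrl, or 12.5%, had no start-site peak in sgSNHG1. These genes were picked by their values after the data were seen.

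The motifs were counted within 300 bases around each summit, on both strands. The canonical E-box of MYC and MYCN (CACGTG) was found in 6.38% of sgCtrl promoter peaks on 17q (5.17% to 7.85%), against 6.08% of all sgCtrl promoter peaks, and in 7.30% of other peaks against 6.67%. The E-box variant CATCTG was in 13.6% and 20.7%, against 12.4% and 20.2%. The T-box motif AGGTGTGA was in 1.79% and 3.76%, against 1.27% and 3.08%, the AP-1 motif TGANTCA in 3.58% and 5.48%, against 3.05% and 4.55%, and the GATA motif AGATAA in 2.18% and 2.12%, against 2.22% and 2.69%. The CCAAT box was in 13.8% and 14.7%, against 12.9% and 16.1%. At promoters, only the GC box GGGCGG differed beyond counting error in both lists. It had 47.5% (44.8% to 50.2%) on 17q against 55.4% (54.8% to 56.1%) in sgCtrl and 52.1% (49.1% to 55.0%) against 57.3% (56.6% to 58.0%) in sgSNHG1. The variant CATCTG did so at sgSNHG1 promoters alone, with 13.2% (11.4% to 15.3%) against 11.2%. For AP-1 in other sgCtrl peaks, the 17q interval (4.62% to 6.50%) lay just above the 4.55% of the whole list. The median GC content of sgCtrl promoter peaks was 66.3% on 17q and 68.0% over the whole list. The AP-1 and T-box motifs can share letters at their ends, as can the CCAAT and GC boxes.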

How the data were processed

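H3K27ac ChIP-seq of sgCtrl and sgSNHG1 SK-N-BE(2)C cells was used, with 2 samples each. The authors trimmed reads with cutadapt, aligned them to GRCh38 with BWA, combined both replicates and called peaks with MACS2 at a p-value of 1e-06, keeping duplicates (versions and an input library are not given in the sources used here). The deposited lists give per peak a fold enrichment, a ratio to the local background, and, deposited beside it, the p-value of the peak as −log10 p. Depth per sample is unknown, and intervals (95%) cover counting error only.

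Peaks were assigned to GENCODE release 44 genes, with gene windows of 10 kb and overlaps of at least 1 bp. Promoter peaks lay at most 3 kb from the start of a coding transcript, measured from the peak edge. The other classes went by the summit. A shared sgCtrl peak was paired with the highest sgSNHG1 peak over it. Fragments at the summit were recovered by assuming MACS2's pseudocount of 1 and Poisson p (tolerance 0.001), which was chosen after the data were seen. Repeated sequence had a median of over 1 copy of its 30-base stretches in the reference. Scripts ran in Python 3.11.15 with matplotlib 3.10.9, scipy 1.17.1, numpy 2.4.6 and pandas 2.3.3, and bedtools 2.31.1 served to check overlaps on simulated data. The region and the gene lists were proposed with earlier results of these data known, although the rule for members uses position alone and the lists were written from general knowledge. Named by rule were all proposed gain and HOXB genes, up to 6 genes of each other list (2 of the highest sgCtrl percentile, the largest rises and the largest falls), the 5 highest, unshared, rising and falling peaks, and the 5 densest windows. One start-site sequence is not reported here. Mature miRNA sequences are from RefSeq on GRCh38.p14.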

Additional observations from a re-analysis of the deposited data

How the results depend on the processing

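No paired analysis was possible because the authors pooled both replicates of a group, which also prevented leaving out a replicate. Over all alternatives, 20 values stayed within the counting interval of the value reported, 21 moved outside it and 4 turned their sign. With −log10 p of at least 10, the ratio of peak numbers was 0.728, the share of sgSNHG1 peaks with an sgCtrl peak 84.9%, the promoter shares 38.3% in sgCtrl and 44.4% in sgSNHG1, and the median change of the gain genes -2.44. Lists of equal size gave shared shares of 71.1% of sgCtrl and 77.5% of sgSNHG1 peaks, a promoter share of 38.6% in sgCtrl, and a median change of the gain genes of 0.75, which turned its sign. Merging peaks within 1 kb gave shared shares of 64.3% and 85.4%, an overlap of at least 50% of both peaks 51.0% and 66.3%, and a peak within 1 kb (added after the data were seen) 71.4% and 90.4%. Promoter shares were 39.4% and 43.6% without repeated sequence, 34.7% and 38.6% from 42 Mb on, and 26.6% and 31.3% with promoters within 1 kb. The median relative log2 height of shared 17q peaks was 0.0023 for promoter peaks alone, taken relative to all shared promoter peaks. It turned negative as −log10 p (-0.099), as fragments over the floor (-0.12) and as fragments among peaks of like GC content and position (-0.11), the last 2 added after the data were seen, so that the direction of the height change on 17q depends on the measure. The shares of shared peaks depend on list size and overlap rule. Fold enrichment, −log10 p and peak number depend on pooled depth, which is unknown, and low peaks with few fragments limit what a missing peak shows.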

Other observations

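Of 72 miRNA hairpins that RefSeq places on 17q, 11 lay under an sgCtrl peak, 10 under an sgSNHG1 peak and 8 under both, and these counts were made after the data were seen. Of all 17q peaks, 62.1% of sgCtrl and 83.4% of sgSNHG1 ones were overlapped by the other list, so hairpins under a peak of 1 list only are not unusual. *MIR423* and *MIR3184*, which overlap on opposite strands from 30117079 to 30117172, lay under the *NSRP1* promoter peak whose fold enrichment went from 3.73 to 7.27. *MIR193A*, from 31559996 to 31560083, lay under an sgSNHG1 peak of 5.82 and under no sgCtrl peak. *MIR6781* had 7.24 in sgCtrl and 6.34 in sgSNHG1, and *MIR3615* 6.05 and 5.35. *MIR4315-2* (5.11) lay under an sgCtrl peak only, and *MIR6516* (4.55) under an sgSNHG1 peak only. The mature miRNAs of the hairpins under a higher peak in sgSNHG1 at *NSRP1* and at *MIR193A* are shown 5′ to 3′ with the seed, bases 2 to 8, in capitals.
hsa-miR-423-5p: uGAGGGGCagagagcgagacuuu
hsa-miR-423-3p: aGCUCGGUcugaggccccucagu
hsa-miR-3184-5p: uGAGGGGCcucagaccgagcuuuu
hsa-miR-3184-3p: aAAGUCUCgcucucugccccuca
hsa-miR-193a-5p: uGGGUCUUugcgggcgagauga
hsa-miR-193a-3p: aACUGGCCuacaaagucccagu
miR-423-5p and miR-3184-5p share a seed, and the seeds of the others differ. A peak over a hairpin describes the chromatin at that position and does not measure the miRNA.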
